A study of Mus musculus with 47 samples.

Results

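The regions described here are the intronic CLK:BMAL1 peaks, the binding sites of the circadian transcription factor CLK:BMAL1 that the deposited peak list places in an intron. They number 1412 of the 3217 ChIP-seq peaks of the list (43.9%), and the deposited signal table holds the average MNase signal over all 1412. The table also gives a top 400 of them, and the remaining 1012 were obtained by subtracting the top 400 from all 1412 in proportion to their numbers. The 1412 were taken by their annotation in the list alone, and the ranking that made the top 400 is not known here. MNase-seq was run on livers of wild-type and Bmal1-/- mice, of the C57BL/6 strain per the labels, aged 3 to 6 months. All mice had been kept for at least 2 weeks in 12 h of light and 12 h of dark and were sampled at zeitgeber time (ZT, hours after lights on) 2, 6, 10, 14, 18 and 22. Each library is 1 mouse, with 4 mice in each group of genotype and time except Bmal1-/- at ZT22, which has 3, for 47 libraries in all. The labels name no drug and do not say how Bmal1 was deleted. Liver nuclei of every group were fixed with 1% formaldehyde for 10 min, digested with micrococcal nuclease for 15 min and reduced to DNA of about 150 nt. Genotypes are as labelled. The tables hold no expression value, so neither the loss of Bmal1 nor the liver identity was checked against a gene.

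CLK:BMAL1 is the activator of the mammalian clock. It binds E-box DNA elements, drives the Period and Cryptochrome genes, and is then inhibited by their proteins, which makes its binding in liver rise in the daytime and fall at night. Micrococcal nuclease cuts DNA that is not wrapped in a nucleosome, so a dip in sequenced fragments marks DNA with few protecting nucleosomes. Introns hold many enhancers, sites that act on a promoter from a distance, and such sites in active tissue usually show a dip of this kind flanked by nucleosomes.

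Introns were the most common location in the peak list, and their share changed little along it. Between 39.9% and 47.2% of the peaks in each decile of the list were intronic. Among the first 100 peaks 43 were intronic and 22 lay at a transcription start site (TSS). The width of the intronic peaks fell along the list, from a median of 394.5 bp in the first decile to 309.5 bp in the fifth and 249.5 bp in the ninth. Their overall median was 309 bp, the same as in the other classes together, and single peaks ran from 100 to 679 bp. The first 400 intronic peaks of the list ended at rank 904 and had a median width of 359 bp. Whether these are the 400 peaks of the deposited top set cannot be told, since the sources used here do not give its ranking. Intronic peaks lay on 20 chromosomes. They made up 35.3% of the peaks on chromosome 11 and 58.4% on chromosome 14, the range over the autosomes, and 30% on chromosome X, where 3 of 10 peaks were intronic.

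**Figure D1:**
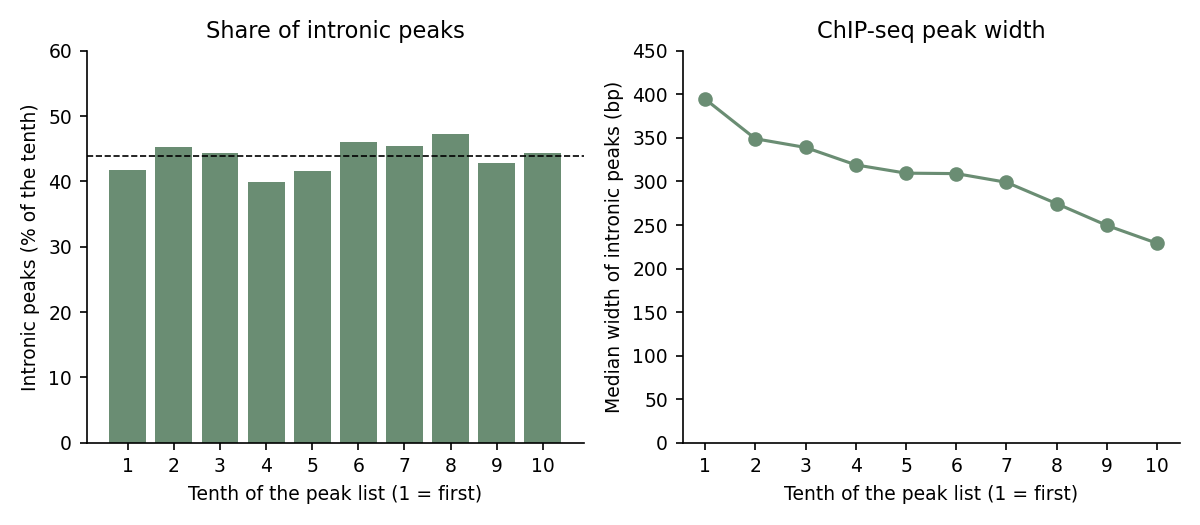
Place of the intronic peaks in the deposited list, by decile of the list from first to last. Bars give the intronic share in percent, with the share over the whole list (43.9%) dashed, and points give the median ChIP-seq width of the intronic peaks in bp, which falls from 394.5 bp in the first decile to 249.5 bp in the ninth while the share stays between 39.9% and 47.2%.

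Several intronic peaks lie close to each other. The first in the list, at rank 5, is chr7:52962811-52963430 (mm9, 619 bp wide), and another intronic peak, of rank 18, starts 1610 bp from its start. At rank 9 is chr2:92263791-92264240. Ranks 10 and 11 are neighbours, chr11:98635071-98635331 and chr11:98635311-98635760, whose starts are 240 bp apart. Rank 12, chr7:56607161-56607840, is the widest intronic peak at 679 bp. The last intronic peak in the list, at rank 3215, is chr19:46716101-46716281, and the narrowest, of rank 3210, is chr9:43893871-43893971 (100 bp), which starts 110 bp from another intronic peak. Of the 3 kb windows of the signal table, 19.8% of the intronic windows overlapped the window of another peak, against 19.4% in the other classes, and 17.6% overlapped that of another intronic peak. Such windows enter the average more than once. The list pairs no peak with a gene, and no signal of a single peak was analysed.

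The genotypes were compared first, to ask how MNase signal at these sites differs between wild-type and Bmal1-/- livers. Intronic peaks showed a dip of MNase signal in both genotypes, and the dip was shallower in Bmal1-/- livers. The profile has 300 positions, 10 bp apart, and each library was expressed in percent of its own flank, the mean signal beyond 1000 bp from the peak middle. The mean within 150 bp of the middle, in these units, is called relative central signal. A series is the mice of a genotype that carry the same replicate number over the day. No replicate number occurs in both genotypes, so a genotype difference cannot be told apart from a difference between the sets of numbers. Relative central signal was 70.8%, 69.6%, 73.5% and 71.8% in wild-type series 11, 12, 26 and 27. In Bmal1-/- series 5, 8, 9 and 10 it was 80.9%, 77.3%, 86.1% and 83.5%. All 4 Bmal1-/- series lay above all 4 wild-type series, with means of 81.95% ± 3.75 against 71.4% ± 1.65 (SD, n = 4 series each). The difference of 10.5 percentage points had an exact two-sided permutation p = 0.0286, the smallest that 70 assignments allow. Without wild-type series 11, 12 or 27 the exact permutation p was 0.0571, with differences of 9.93 to 10.7. Without wild-type series 26 or any single Bmal1-/- series it was 0.0286. The genotypes stayed separate in each case, and with unequal numbers of series this p can rise without any overlap.

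**Figure D2:**
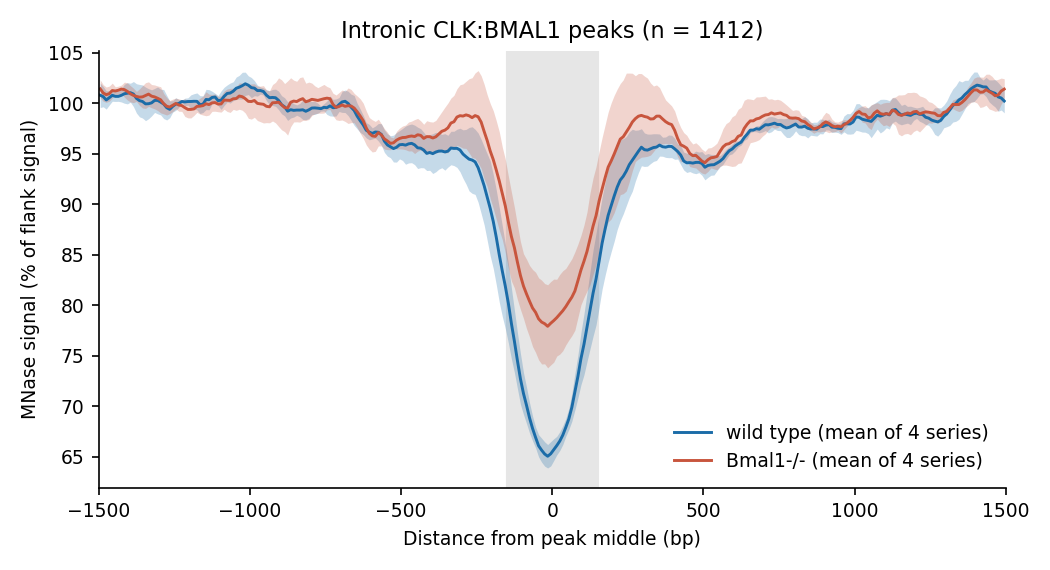
MNase signal over the intronic peaks in percent of the flank signal, against the distance from the peak middle in bp. Lines are means of 4 series per genotype, bands are SD, and grey marks the central 300 bp, where the wild-type line (lowest point 65.1%) lies below the Bmal1-/- line (lowest point 77.9%).

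The genotypes separated over the central part of the window. All 4 Bmal1-/- series exceeded all 4 wild-type series over a run of 260 bp, from 140 bp left to 120 bp right of the middle, and over no other position of the 3 kb window. Over the positions of all 29 peak sets the same separation held at 7.32%, not far below its share of the intronic window. The reverse held over 0 bp of the intronic window (0.713% over all sets). The means differed most at 5 bp left of the middle, with 65.3% ± 1.20 in wild type and 78.2% ± 4.13 in Bmal1-/- (mean ± SD, n = 4 series each), a gap of 12.9 percentage points. By distance from the middle, signal within 50 bp was 66.1% ± 0.977 in wild type and 78.7% ± 3.99 in Bmal1-/-. From 50 to 150 bp it was 74.1% and 83.6%. In both bands the series did not overlap (exact permutation p = 0.0286, adjusted p = 0.0714 over 5 bands, a family in which no adjusted value passed). That exact p is the smallest possible, so the adjusted value could pass only if more bands reached it. From 150 to 300 bp the levels were 90.9% and 95.8%, a difference of 4.90 percentage points with overlapping series (exact permutation p = 0.171). Farther out the differences were 1.79 points from 300 to 500 bp and 0.381 from 500 to 1000 bp (exact permutation p = 0.2 and 0.543).

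The place and width of the dip were read from each series. Its minimum lay at -17.5 bp from the middle in wild type and at -15 bp in Bmal1-/-, as means over series, where a minus sign marks the left. Measured at the level midway between its minimum and the flank, the dip was 312 ± 54.7 bp wide in wild type and 311 ± 75.8 bp in Bmal1-/- (mean ± SD, n = 4 series each). Widths of single series ran from 258.6 to 362 bp in wild type and from 247.3 to 419 bp in Bmal1-/-, and the genotypes overlapped. Wild-type minima in the smoothed profile were 66.8%, 65.2%, 65.5% and 63.9% in series 11, 12, 26 and 27. Those of Bmal1-/- were 79.3%, 72.3%, 81.7% and 79.6% in series 5, 8, 9 and 10, all above the wild-type values.

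On the scale deposited by the authors, the central difference was smaller relative to the spread. Wild-type series had a central signal of 4.98 ± 0.124 signal units and Bmal1-/- series had 5.58 ± 0.377 (SD, n = 4 each). The difference of 0.601 did not pass (exact permutation p = 0.0857). Bmal1-/- series 8, at 5.04, fell among the wild-type series, which ranged from 4.84 to 5.096. Flank signal was 6.97 and 6.80 units (exact permutation p = 0.457). A limma fit over every position of the 29 sets, on log2(signal + 5.54), called 310 bp of the intronic window higher in Bmal1-/- and 0 bp lower at adjusted p under 0.05. Over all sets 7.85% of positions were called in either direction and 7.69% as higher. The called stretch ran from 180 bp left to 130 bp right of the middle, and the log2 difference at 5 bp left was 0.11 ± 0.018 (SE, limma adjusted p = 1.63e-05). With each library divided by its flank, limma called 570 bp, and 14.5% of positions over all sets. This fit takes the mice of a series as independent: with the 8 series means in place of the mice it called 0 bp, and 240 bp had an unadjusted p under 0.05, and without series 5 it called 310 bp higher and 2090 bp lower.

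The second comparison followed the genotype difference through the day. At each of the 6 times the mean of the Bmal1-/- mice was the higher, with no overlap between genotypes in the daytime. At ZT02 the wild-type mice 11, 12, 26 and 27 had 74.3%, 71.3%, 71.02% and 70.5% relative central signal, and the Bmal1-/- mice 5, 8, 9 and 10 had 82.6%, 78.3%, 88.9% and 87.7%. At ZT06, in the same orders, wild type had 65.1%, 64.02%, 68.3% and 71.03%, and Bmal1-/- had 72.8%, 77.7%, 86.6% and 85.2%. The lowest Bmal1-/- mouse at this time, replicate 5, was 1 of 2 with under 73% in that genotype. At ZT10 wild type had 67.4%, 68.3%, 71.8% and 64.1%, against 79.3%, 76.7%, 81.8% and 80.1%. Differences were 12.6 percentage points at ZT02, 13.5 at ZT06 and 11.5 at ZT10, with exact permutation p = 0.0286 and adjusted p = 0.0571 over the 6 times at each. That exact p is the smallest that 70 assignments allow, so the adjusted value depended on how many times reached it.

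At night the genotypes overlapped. At ZT14 wild-type mice had 71.8%, 67.5%, 78.4% and 71.4%, and Bmal1-/- mice had 78.1%, 81.2%, 91.8% and 85.9%. Only wild-type replicate 26 reached into the Bmal1-/- range (12.0 percentage points between the means, exact permutation p = 0.0571, adjusted p = 0.0857). At ZT18 wild type had 70.5%, 74.1%, 78.7% and 74.6%, and Bmal1-/- had 80.2%, 72.7%, 83.4% and 84.7%. Here replicate 8 of Bmal1-/- fell below 3 of the 4 wild-type mice, and the difference was the smallest of the 6 times, 5.78 (exact permutation p = 0.143). At ZT22 wild type had 75.6%, 72.3%, 72.6% and 79.1%, and the Bmal1-/- mice 5, 9 and 10 had 92.2%, 83.98% and 77.4%. The difference was 9.63 (exact permutation p = 0.0857, adjusted p = 0.103), and the absent mouse is of series 8, the lowest Bmal1-/- series. Without replicate 5 it was 5.79. With the centre taken within 50 bp of the middle, the differences were 15.2, 16.4, 12.9, 14.2 and 12.6 percentage points at ZT02, ZT06, ZT10, ZT14 and ZT22, and each of these then passed (exact permutation, adjusted p = 0.0343). At ZT18 it was 6.94 and did not pass (exact permutation, adjusted p = 0.143). At ZT02, ZT06 and ZT10 the exact p was the smallest possible with either centre. Their adjusted values fell because ZT14 and ZT22 then reached that p too.

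**Figure D3:**
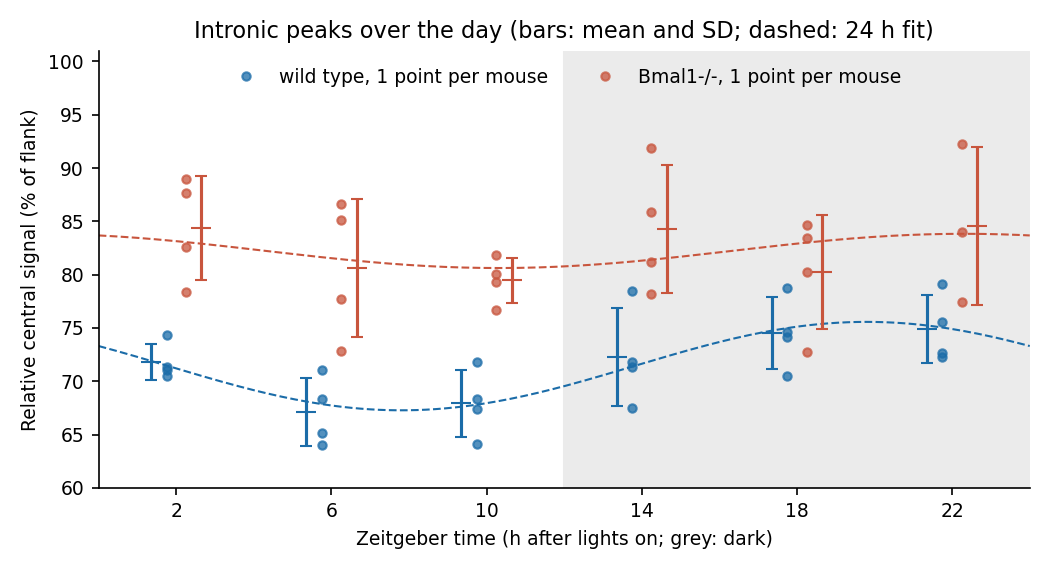
Relative central signal of the intronic peaks, in percent of the flank, against zeitgeber time in hours. Each point is 1 mouse, bars are mean and SD of the 3 or 4 mice of a group, dashed lines are the 24 h fits, and grey marks the dark. Wild-type mice reach their lowest values (64.02% and 64.1%) at ZT06 and ZT10, and the Bmal1-/- points lie above all wild-type points at ZT02, ZT06 and ZT10.

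Position by position, limma called a genotype difference at intronic peaks at ZT06 and at no other time. It covered 20 bp of the 3 kb window, from 40 to 20 bp left of the middle, all higher in Bmal1-/-. This is a smaller share than the 2.54% of positions called over all sets. At ZT02, ZT10, ZT14, ZT18 and ZT22 limma called 0 bp of the intronic window, with 330, 290, 210, 30 and 0 bp at an unadjusted p under 0.05. Over all sets 0.368% of positions were called at ZT02 and 0% at each of the other 4. With libraries divided by their flank, the widths were 180 bp at ZT02, 230 bp at ZT06 and 60 bp at ZT10, against 3.02%, 5.57% and 1.14% over all sets. The width at ZT06 was 0 bp without replicate 9, 10, 11, 12, 26 or 27, 10 bp without replicate 5 and 220 bp without replicate 8. Without replicate 8 limma also called 450 bp at ZT02 and 50 bp at ZT10.

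The third comparison asked whether the dip at intronic peaks changes over the day. In wild-type livers it was deeper in the light. Over 12 mice in the light relative central signal ran from 64.02% to 74.3% with a median of 69.4%, and over 12 in the dark from 67.5% to 79.1% with a median of 73.4%. The ranges overlapped. The light mean of 68.9% ± 3.28 and the dark mean of 73.9% ± 3.60 (SD over the 12 mice of each) were -4.94 percentage points apart (permutation p = 0.0026, two-sided). Every wild-type series was lower in the light, by -3.67, -3.40, -6.22 and -6.48 points in series 11, 12, 26 and 27. The change was largest in the middle of the dip. It was -6.01 ± 1.56 points within 50 bp, -4.40 ± 1.74 from 50 to 150 bp, -1.44 ± 1.36 from 150 to 300 bp and -0.995 ± 1.01 from 300 to 500 bp (SD, n = 4 series), and negative in all 4 series in each band. From 500 to 1000 bp it was -0.669 ± 0.519, lower in 3 of 4 series. Relative depth, with the shallowest library at 1, averaged 1.61 for light and 1.43 for dark mice of the wild type, and with depth as a covariate the difference was -4.90 ± 1.51 points (SE).

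In Bmal1-/- livers light and dark did not differ beyond the spread between mice. Relative central signal ran from 72.8% to 88.9% in the light (median 80.9%, n = 12) and from 72.7% to 92.2% in the dark (median 83.4%, n = 11). The means of 81.5% ± 4.90 and 82.9% ± 5.88 (SD) differed by -1.40 points (permutation p = 0.539, two-sided), by -0.0812 without replicate 5 and by -2.42 without replicate 10. Series 5 and 9 were lower in the light, by -5.28 and -0.613, and series 8 and 10 were higher, by 0.633 and 1.63. In series 5 the mouse at ZT22 had 92.2% and that at ZT06 72.8%, the extremes of the series. The test of the difference itself, light minus dark in Bmal1-/- against wild type, gave 4.03 points and did not pass (exact permutation p = 0.0857). It was 5.49 without Bmal1-/- replicate 5 and 3.65 without ZT22, each with exact permutation p = 0.0286.

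A 24 h cosine gave the time of the deepest dip. In wild type the amplitude was 4.15 ± 0.894 percentage points and the minimum fell at ZT 7.80 ± 0.823 h (SE, n = 24 mice, permutation p = 0.0006). In Bmal1-/- the amplitude was 1.61 ± 1.65 (SE, n = 23 mice, permutation p = 0.613). The rhythms differed between genotypes by 3.53 points, which did not pass (exact permutation p = 0.143), except without replicate 5, where it was 5.17 (exact permutation p = 0.0286). On the authors' scale limma called 0 bp of the intronic window between light and dark in wild type, where 260 bp had an unadjusted p under 0.05 and 1.22% of positions were called over all sets. It also called 0 bp as rhythmic, where 280 bp had an unadjusted p under 0.05 and 1.41% were called over all sets. With the replicate numbers as a block, which pairs the mice of a series, limma called 130 bp as lower in the light (4.78% over all sets) and 160 bp as rhythmic (5.3% over all sets). Both widths are shares of the 3 kb window near those over all sets. With libraries divided by their flank limma called 0 bp in both tests (340 and 370 bp unadjusted; 2.37% and 1.75% over all sets). Without Bmal1-/- replicate 8, which enters through the shared estimate of spread, it called 30 bp as lower in the light and 20 bp as rhythmic in wild type. In Bmal1-/- limma called 0 bp for either test on the authors' scale, with 0 bp at an unadjusted p under 0.05 and 0% over all sets. The calls there were also 0 bp with the block, where 570 bp between light and dark and 110 bp for the rhythm had an unadjusted p under 0.05, and with libraries divided by their flank (50 and 0 bp unadjusted).

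The intronic peaks were then compared among themselves, as the top 400 against the remaining 1012. The top 400 had the shallower dip of both in 4 of 4 Bmal1-/- series and the deeper in 3 of 4 wild-type series, and this difference between genotypes passed its test. Relative central signal of the top 400 was 71.6%, 68.3%, 72.1% and 69.2% in wild-type series 11, 12, 26 and 27, and 83.007%, 78.7%, 88.7% and 85.7% in Bmal1-/- series 5, 8, 9 and 10. For the remaining peaks it was 70.5%, 70.1%, 74.04% and 72.8% in wild type, against 80.1%, 76.8%, 85.1% and 82.6% in Bmal1-/-. The genotype difference was 13.7 percentage points in the top 400 and 9.28 in the remaining peaks, without overlap between series in either (exact permutation p = 0.0286 each). On the authors' scale the central difference was 0.842 signal units in the top 400 (exact permutation p = 0.0286) and 0.506 in the remaining peaks (exact permutation p = 0.0857).

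Taking the difference of the 2 subsets within each series removes a shift that is equal in points in both. A library effect that differs in size between the subsets would remain. Top 400 minus remaining was 1.09, -1.80, -1.98 and -3.56 points in wild-type series 11, 12, 26 and 27. It was 2.95, 1.97, 3.57 and 3.04 in Bmal1-/- series 5, 8, 9 and 10, positive in 4 of 4. Every Bmal1-/- value lay above every wild-type value, a difference of 4.44 points (exact permutation p = 0.0286). Without Bmal1-/- series 5, 8, 9 or 10 it was 4.22 to 4.75 with exact permutation p = 0.0571, and without any single wild-type series that p was 0.0286. The genotypes did not overlap in any of these cases, so the rise in p does not mark a loss of separation. Within wild type alone the mean was -1.56 ± 1.94 (SD, n = 4 series, exact sign-flip p = 0.25).

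**Figure D4:**
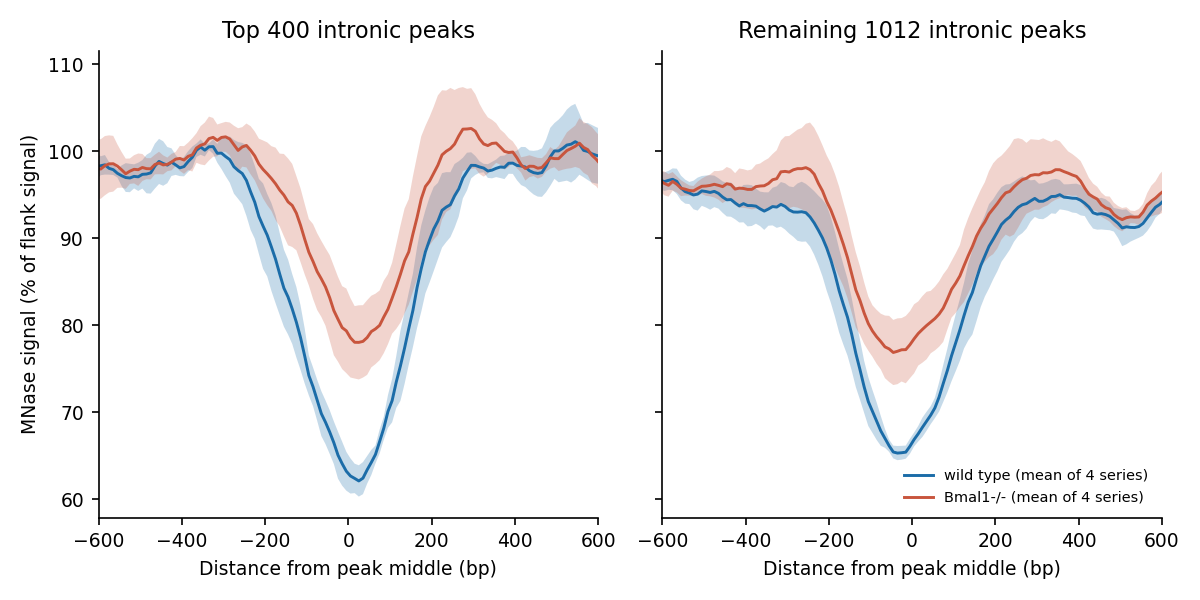
MNase signal in percent of the flank against the distance from the peak middle in bp, for the top 400 (left) and the remaining 1012 (right) intronic peaks. Lines are means of 4 series per genotype and bands are SD. The gap between genotypes is 13.7 percentage points over the centre on the left and 9.28 on the right, and the minimum lies to the right of the middle on the left panel and to the left of it on the right panel.

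The subsets also differed in where the dip lay. In the top 400 the minimum was on average 20 bp right of the middle in wild type and 22.5 bp right in Bmal1-/-, and in the remaining peaks it lay at -30 and -42.5 bp. In the top 400 signal was higher in the left 150 bp of the centre than in the right, by 3.99 ± 1.53 points in wild type and 5.08 ± 1.13 in Bmal1-/- (mean ± SD, n = 4 series each). The remaining peaks showed the opposite, -4.71 ± 0.759 and -3.43 ± 0.333 points. All 8 series had the sign of their subset in both cases, so the skew had the same sign in both genotypes. It was not tested, and the sources used here do not say whether windows were turned to the strand of a gene. By the number of bp called by limma for genotype, the top 400 had 380 bp and the remaining peaks 240 bp of their 3 kb windows, all higher in Bmal1-/-, where 7.69% of positions over all sets were called higher. The share of the remaining peaks is near that background. At ZT06 the widths were 230 and 0 bp (190 bp of the remaining at an unadjusted p under 0.05), with 2.54% of positions called over all sets.

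Through the day the top 400 had the wider swing in wild type. At ZT06 they stood at 62.6%, 58.5%, 63.9% and 65.8% in wild-type mice 11, 12, 26 and 27, and at 73.1%, 79.3%, 89.02% and 87.6% in Bmal1-/- mice 5, 8, 9 and 10. The genotype difference in the top 400 was 14.4, 19.6, 15.8, 15.2, 8.08 and 11.6 points from ZT02 to ZT22, and in the remaining peaks 11.9, 11.1, 9.87, 10.7, 4.88 and 8.82. The largest value lay in the light in both, at ZT06 in the top 400 and at ZT02 in the remaining peaks, and the smallest at ZT18. Not every light time exceeded every dark time: ZT14 stood above ZT02 in the top 400 and above ZT10 in the remaining peaks. Light minus dark in wild type was -7.79 points in the top 400 (permutation p = 0.00044) and -3.83 in the remaining peaks (permutation p = 0.0118). The 24 h amplitude was 6.26 ± 1.18 with a minimum at ZT 7.40 ± 0.719 h in the top 400 (SE, n = 24 mice, permutation p = 9e-05). In the remaining peaks it was 3.35 ± 0.905 with a minimum at ZT 8.08 ± 1.03 h (SE, n = 24 mice, permutation p = 0.00562).

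Per mouse, top 400 minus remaining averaged -3.54 ± 3.24 points in the light and 0.417 ± 3.34 in the dark in wild type (SD, n = 12 each). The change of -3.96 passed over mice (permutation p = 0.00826) and was negative in 4 of 4 series, with values of -3.45, -4.90, -6.85 and -0.629 in series 11, 12, 26 and 27. Over 4 series the exact sign-flip test gives p = 0.125, the smallest it can give, and without series 26 the change was -3.00 (permutation p = 0.0901). In Bmal1-/- the 4 series were also all negative, at -2.39, -0.671, -1.97 and -1.67 in series 5, 8, 9 and 10, with a mean of -1.68 ± 0.731 (SD, n = 4 series, exact sign-flip p = 0.125). The genotypes differed in it by 2.28 points, which did not pass (exact permutation p = 0.171). On the authors' scale limma called 20 bp of the top 400 window as lower in the light and 110 bp as rhythmic in wild type, and 0 bp of the remaining window for either (200 and 150 bp at an unadjusted p under 0.05). Over all sets 1.22% and 1.41% of positions were called, so the 20 bp is below that share of its window. With the replicate block the widths were 260 and 320 bp in the top 400 and 20 and 10 bp in the remaining peaks. Over all sets 4.78% and 5.3% were then called, and the widths of the remaining peaks are below those shares. Between genotypes limma called 0 bp for light against dark in the top 400 (410 bp at an unadjusted p under 0.05; 0% called over all sets), and 30 bp with the block, a share near the 1.18% called over all sets.

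The last comparison set the intronic peaks beside the other classes of the list, within each series. Intronic peaks stood closest to the other distal classes and apart from TSS peaks. Their relative central signal exceeded that of TSS peaks by 12.6 ± 3.48 points in wild type and 19.7 ± 1.92 in Bmal1-/- (mean ± SD, n = 4 series each). The 4 wild-type series ranged from 8.75 to 16.3 and the Bmal1-/- series from 18.6 to 22.6, with no overlap, a genotype difference of 7.06 points (exact permutation p = 0.0286, adjusted p = 0.114 over 4 classes). Against gene body peaks outside introns the intronic peaks were at -2.20 ± 2.58 points in wild type and -0.403 ± 1.37 in Bmal1-/- (exact permutation p = 0.286 for the difference of 1.80, which was 0.772 without replicate 11 and 2.78 without replicate 26). Against intergenic peaks within 10 kb of a gene they were at -0.993 ± 2.16 and 1.54 ± 1.41 (difference 2.53, exact permutation p = 0.114). Against intergenic peaks beyond 10 kb they were at 0.134 ± 2.02 and 2.19 ± 0.703 (difference 2.06, exact permutation p = 0.143). No class passed for a difference from the introns in its genotype effect after adjustment. For TSS peaks the exact p was the smallest possible, and its adjusted value could pass only if other classes also reached that p. The test over 4 classes thus could not decide for TSS peaks alone. Without wild-type replicate 26 TSS and both intergenic classes reached it and passed, with 8.30, 3.49 within and 2.93 beyond 10 kb (exact permutation, adjusted p = 0.0381).

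**Figure D5:**
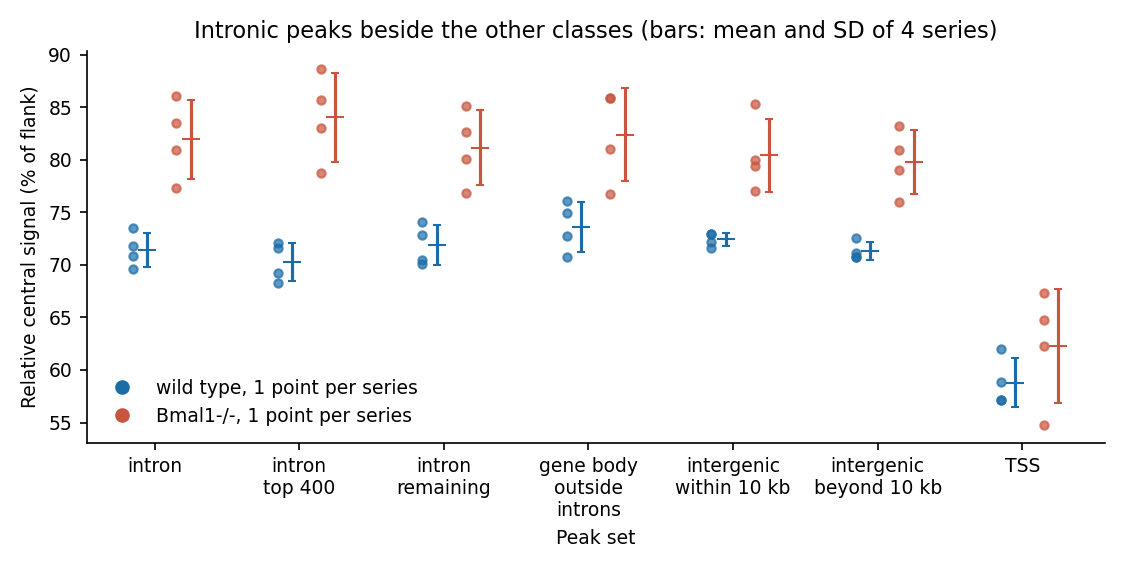
Relative central signal, in percent of the flank, of the intronic peaks, their 2 subsets and the other 4 classes of the peak list. Each point is 1 series, and bars are mean and SD of 4 series per genotype. The axis starts above 0. Intronic series sit between 69.6% and 73.5% in wild type and between 77.3% and 86.1% in Bmal1-/-, above the TSS series in every case.

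In wild type the daily swing at introns was set beside that of each other class. Light minus dark at intronic peaks minus that at another class was -1.86 ± 2.11 points against TSS peaks and 1.99 ± 5.41 against gene body peaks outside introns (SD, n = 4 series). It was 1.14 ± 2.41 against intergenic peaks within 10 kb and -0.969 ± 1.79 against those beyond. It was negative in 4, 1, 1 and 3 of 4 series in this order. Over the 24 mice the permutation p was 0.256, 0.249, 0.463 and 0.390 in this order (adjusted p = 0.463 each), so none passed. The dip at TSS peaks was deeper in both genotypes and had a midway width of 271.9 ± 12.5 bp in wild type and 279.1 ± 50.9 bp in Bmal1-/- (mean ± SD, n = 4 series each).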

How the data were processed

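MNase-seq signal was measured in 47 mouse liver libraries, each 1 mouse. The signal is coverage that the authors scaled and averaged over peak sets before they deposited it, as 300 values per library and set over a 3 kb window, for 27 sets. CASAVA 1.7, Bowtie and mm9 are named in the submitters' processing notes. The sources used here do not give the Bowtie version, fragment length, duplicate handling or scaling target. Reads were not reprocessed, and mm9 positions were not converted or matched to sequence or genes.

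The remaining introns and the gene body peaks outside introns were derived by count-weighted subtraction, which makes 29 sets. For relative central signal, the mean within 150 bp of the middle was taken in percent of the mean beyond 1000 bp. Dip widths and minima used profiles smoothed over 50 bp. Series means were compared by exact permutation tests, mice by exact tests or 100000 resamples, and positions by limma 3.58.1 in R 4.3.3 (eBayes with trend, 8700 positions, Benjamini-Hochberg at 0.05). Its pseudocount of 5.54 is the 10th percentile of the values, and log2 differences on that scale understate those of the signal. Positions share fragments, so calls are widths in bp. Other steps used Python 3.11.15, numpy 2.4.6, pandas 2.3.3 and scipy 1.17.1. The scripts were tested on simulated data.

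Library depth was read from the steps of the signal in the sets of 100 and 74 peaks, where 100% of values were whole multiples of 1 step with a tolerance of 0.1. Relative depth reached 2.09. Wild-type series had 1.52 ± 0.252 and Bmal1-/- series 1.37 ± 0.206 (SD, n = 4 each, exact permutation p = 0.314). The counting error of a central intronic position was 0.674% to 0.965%, and at most 1.78% in the top 400. It covers counting error alone, since no molecular identifiers mark which fragments are independent.

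Replicate numbers recur over the times. Light and dark profiles of a number deviated together in every series (correlation 0.465 to 0.671 in wild type, 0.302 to 0.711 in Bmal1-/-), and the numbers were taken to pair mice because each correlation was above 0.1. A series correlated best with its own number in 1 of 4 cases in wild type and 3 of 4 in Bmal1-/-, so the pairing is uncertain. The sources used here do not say what a number stands for. P-values thus cover the variation among mice or among series. Peaks were named by their place in the list: the first 5 intronic peaks, the last, the widest and the narrowest. Members and lists were chosen with earlier results of these data known. Alternatives covered the centre and flank windows, scaling, pseudocount, a filter on low signal, series means, the replicate block and leaving out each replicate. Leaving out ZT22 and a depth covariate were added after seeing the data.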

Additional observations from a re-analysis of the deposited data

Results flagged for a closer look

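The difference between the top 400 and the remaining intronic peaks was not the same in both genotypes. Top 400 minus remaining was higher in Bmal1-/- than in wild type by 4.44 percentage points of relative central signal (exact permutation p = 0.0286 over 8 series), and it was flagged because a test of this difference between genotypes passed. Of 33 groups of 4 mice or series examined, 0 had a sample far from the others, where chance gives about 5%.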

How the results depend on the processing

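Of 36 results, 17 kept their direction and their side of the threshold under every alternative. Of the 17, only light minus dark and the 24 h rhythm of relative central signal in wild type had passed. In the others nothing had passed. The genotype difference in relative central signal was not among the 17, as it no longer passed in 4 of its 14 alternatives. No signed difference changed sign under an alternative, where limma widths and 24 h amplitudes were left out of the count. The genotype difference in relative central signal was 0.601 signal units on the authors' scale and 9.15 to 12.1 points with single replicates left out. The ranges that follow also come from leaving out single replicates. Between genotypes, light minus dark ranged from 3.19 to 5.49 and was 3.65 without ZT22 (chosen after seeing the data). The 24 h rhythm between genotypes ranged from 2.80 to 5.17. Intron minus TSS ranged from 5.77 to 8.30 and minus gene body outside introns from 0.772 to 2.78. Intron minus intergenic within 10 kb ranged from 1.75 to 3.49, and minus intergenic beyond 10 kb from 1.43 to 2.93. At ZT22 the genotype difference ranged from 5.79 to 13.2. Top 400 minus remaining ranged from 3.78 to 5.33 between genotypes and from -5.07 to -3.00 for light minus dark in wild type. Some values with another centre lay outside these ranges. Within 250 bp, intron minus TSS was 5.66, minus intergenic within 10 kb 1.36, and top 400 minus remaining between genotypes 3.60. Within 50 bp, intron minus TSS was 8.32 and minus intergenic within 10 kb 3.83. With the centre within 50 bp the differences at ZT02, ZT06, ZT10, ZT14 and ZT22 were 15.2, 16.4, 12.9, 14.2 and 12.6, and 6.94 at ZT18, which did not pass. The cause of these changes was not tested.

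The limma widths moved most. For genotype they were 570 bp with libraries divided by the flank, 0 bp with series means, and 230 to 2400 bp with single replicates left out (570 bp without replicate 8; 310 bp higher and 2090 bp lower without replicate 5). Without the 25% of positions of lowest signal 0 bp were called, as that filter left 0 of the 30 central positions. At ZT06 the width was 90 bp with the smaller pseudocount, 0 bp with the larger, 0 bp with the filter, 230 bp divided by the flank, and 0 to 220 bp with single replicates left out. At ZT02 it was 180 bp divided by the flank and 0 to 450 bp, and at ZT10 60 bp and 0 to 50 bp. The replicate block gave 130 bp for light against dark and 160 bp for the rhythm in wild type, shares near those over all sets. Single replicates left out gave 0 to 30 bp and 0 to 20 bp in these tests. The block changed no other call of the whole intronic set, but it moved calls of the top 400 and of the remaining peaks. Counting error was below the spread between mice.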
